A study of Mus musculus with 7 samples.

Results

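The genes described are the connexins and pannexins of mouse retina, in 7 libraries of total RNA. The list holds 10 genes, the connexins *Gje1*, *Gja1*, *Gja4*, *Gja10*, *Gjc1*, *Gjc3*, *Gjd2* and *Gjb6* and the pannexins *Panx1* and *Panx2*, out of 19 connexin and pannexin genes reported here and 52550 genes in the table. The list was chosen by the rise of 1 of them, *Gje1*, from WT to SCA7 retina in these same libraries, so the values of *Gje1* are given as a description without a test. For the other genes, adjusted p values come from a single fit over all genes. The other 9 family genes are given for context.

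The WT group had 4 mice and the SCA7 group had 3 mice, all C57BL/6J and 12.5 weeks old, and each library was made from both retinas of 1 mouse. SCA7 mice were homozygous knock-in mice, SCA7140Q/140Q, in which both *Atxn7* alleles carry the expanded CAG repeat under the promoter of the gene itself, so that the mutant protein is made wherever the gene is active. Neither group carried a transgene or received an agent, per the labels. Libraries held 56497675 to 96635832 counts on genes, so that a single count was worth 0.00972 to 0.0187 CPM (counts scaled to a common library size of 1e+06). The 10 rod and cone markers together fell from 57113-58931 CPM in WT to 13685-18240 CPM in SCA7 libraries. In such bulk samples, fewer cells of a type and less RNA per cell cannot be told apart.

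Connexins are membrane proteins that assemble into hemichannels, and hemichannels of neighbouring cells dock to form gap junctions, through which ions and small molecules pass. In the retina, electrical coupling through gap junctions links photoreceptors, horizontal cells, AII amacrine cells and bipolar cells, and glial and vascular connexins link astrocytes and vessel cells. Pannexins resemble connexins in shape but act mostly as single-membrane channels that release ATP, which purinergic receptors sense.

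Docking depends on the 2 extracellular loops of a connexin, which cysteines hold in place. The coding sequence of the first loop is shown for *Gje1* and for the 4 connexin members expressed in neurons and glia at the highest levels, since *Gje1* is set apart from them here. Each run covers 18 codons of the GENCODE M21 annotation (GRCm38), 5′ to 3′ on the coding strand, with the cysteine codons in capitals.
Gje1: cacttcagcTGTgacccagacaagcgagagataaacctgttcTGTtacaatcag
Gjd2: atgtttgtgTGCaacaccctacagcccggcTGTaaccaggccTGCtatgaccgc
Gja1: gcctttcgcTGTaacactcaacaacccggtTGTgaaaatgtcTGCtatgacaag
Gjc1: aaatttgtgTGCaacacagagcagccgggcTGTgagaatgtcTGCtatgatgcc
Gja10: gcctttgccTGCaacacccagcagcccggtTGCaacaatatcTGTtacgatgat
The stretch lies at chr10:14717270-14717323 (exon 2 of 3, minus strand) in *Gje1*, at chr2:114011788-114011841 (exon 2 of 2, minus strand) in *Gjd2*, at chr10:56387697-56387750 (exon 2 of 2, plus strand) in *Gja1*, at chr11:102800975-102801028 (exon 3 of 3, minus strand) in *Gjc1* and at chr4:32602179-32602232 (exon 1 of 1, minus strand) in *Gja10*. Of the 8 connexin members, 7 had 3 cysteine codons in this stretch and *Gje1* had 2, at codons 53 and 64 of its 205. The stretch was located by a pair of cysteine codons 11 codons apart, so this spacing is the same in all 8 by choice. Between this pair, the other 7 have a middle cysteine codon and *Gje1* has none.

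Levels between genes were compared as reads per kilobase (RPK), that is counts scaled between libraries and divided by the median transcript length. *Gjd2*, the main neuronal connexin of the retina, was the most abundant member in WT retina with 2684 ± 159 RPK (SD, n = 4 mice), 6.00 times the next. It was followed by *Gja1* with 448 ± 262 RPK, *Panx1* with 414 ± 64.3 RPK and *Panx2* with 382 ± 28.2 RPK, and these 3 neighbours in the order overlapped between mice. *Gjc1* with 203 ± 15.1 RPK, *Gja10* with 113 ± 8.77 RPK and *Gja4* with 42.2 ± 1.43 RPK came next without overlap between neighbours. *Gje1* with 22.2 ± 6.42 RPK, *Gjc3* with 8.21 ± 1.79 RPK and *Gjb6* with 3.15 ± 1.28 RPK closed the order of the members. Part of this order depends on the length chosen, and so does the lead of 6.00 times. With the union of all exons as length, *Gjd2* stayed first, *Panx2* and *Gja10* came next, and *Gja1* moved to sixth with 76.2 RPK.

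**Figure D1:**
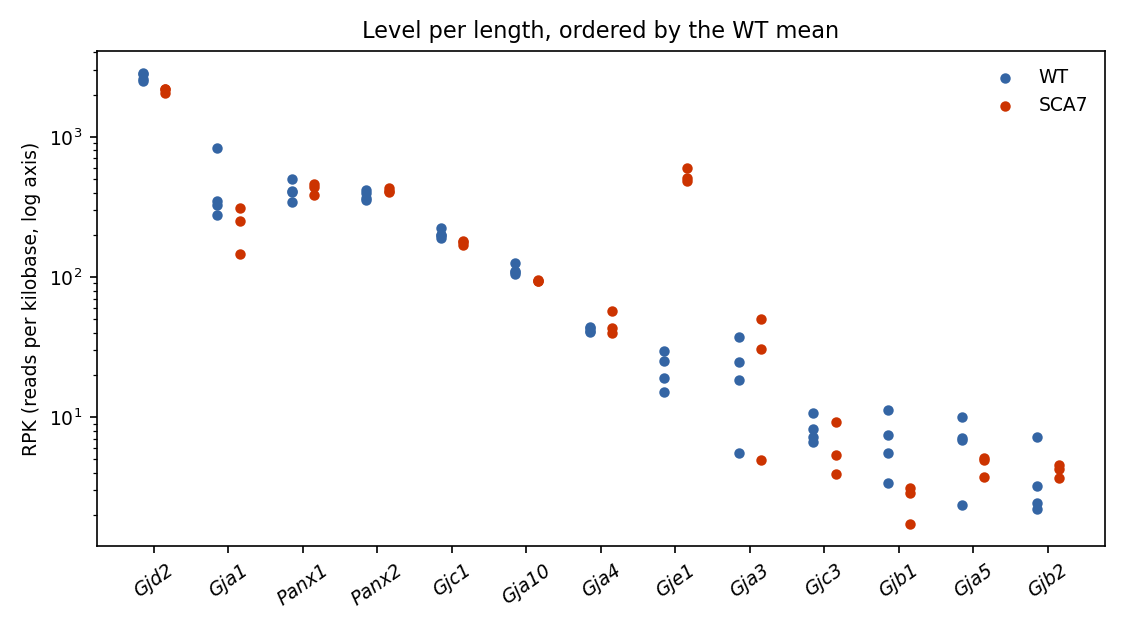
Level in RPK, on a log axis, of the 13 connexin and pannexin genes with the highest WT means, each point being 1 library (WT blue, SCA7 red). *Gjd2* leads in both genotypes, and *Gje1* moves from 22.2 RPK in WT to 530 RPK in SCA7 retina.

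*Gje1*, known for its place in the fibre cells of the lens, was below 1 CPM in every WT library and above 10 CPM in every SCA7 library. The 4 WT libraries held 19, 29, 34 and 35 counts, or 0.325, 0.405, 0.638 and 0.535 CPM. The 3 SCA7 libraries held 667, 1086 and 1053 counts, or 10.8, 12.7 and 10.2 CPM. No SCA7 library came near a WT library, and the lowest WT value still stood above the limit that 3 counts set in any library, at most 0.0562 CPM. The fitted log2 fold change was 4.57 (SE 0.171), a fold of 23.8. This was the 10th largest log2 fold change of the 20128 genes tested.

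In RPK, *Gje1* went from 22.2 ± 6.42 in WT (n = 4) to 530 ± 58.0 in SCA7 retina (n = 3). Among the 19 family genes it was eighth in WT and second in SCA7 retina, behind *Gjd2* alone. Its share of the summed RPK of these genes was 0.508% ± 0.143 in WT and 12.8% ± 1.32 in SCA7 libraries, while that of *Gjd2* was 61.5% ± 3.50 and 52.1% ± 2.56.

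**Figure D2:**
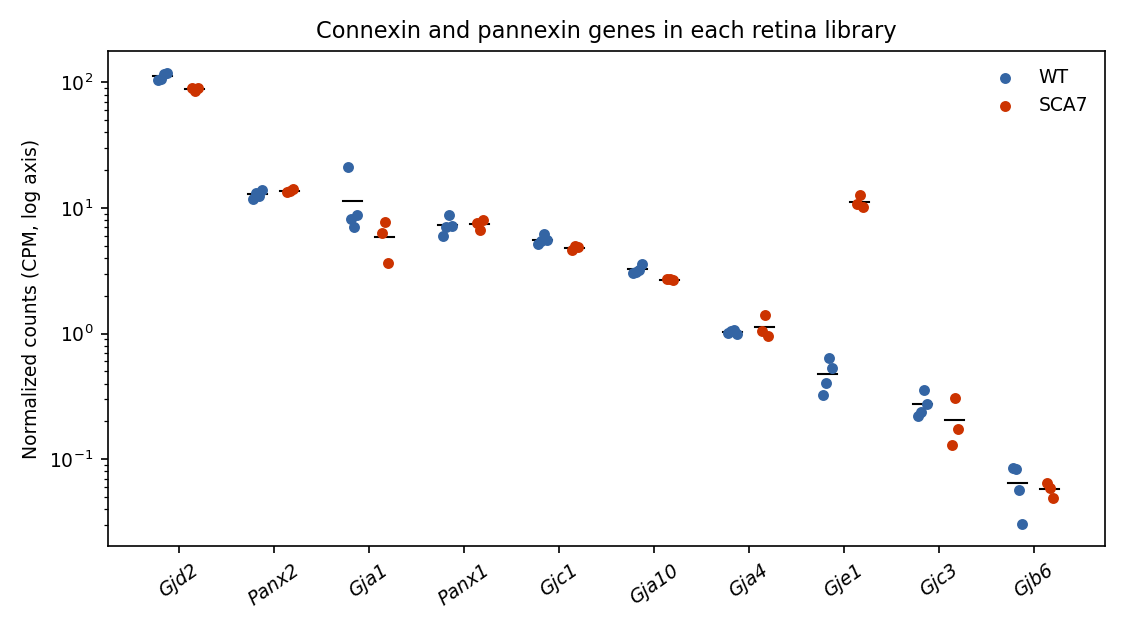
CPM of each listed gene on a log axis, each point being 1 library (WT blue, SCA7 red) and each bar a group mean. *Gje1* separates the genotypes by more than any other member, from at most 0.638 CPM in WT to at least 10.2 CPM in SCA7 libraries.

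Because *Gje1* is known as a lens gene, it was set beside 12 lens fibre markers, among them the water channel gene *Mip*, the filament genes *Bfsp1* and *Bfsp2* and the crystallin genes *Crygb*, *Crygc* and *Crygd*. Their summed level was 50.2, 218, 123 and 14.2 CPM in WT libraries and 189, 416 and 15.6 CPM in SCA7 libraries, so the groups overlapped widely. All 10 lens markers tested had a higher mean in SCA7 retina and 0 passed the test, 0 also at an adjusted p below 0.05 without a fold threshold. Within the SCA7 libraries, *Gje1* and the lens sum had the same order over the 3 mice, with *Gje1* between 10.2 and 12.7 CPM and the sum between 15.6 and 416 CPM. Within the WT libraries the orders differed, with the lowest lens sum in WT mouse 4 and the highest in WT mouse 2, and *Gje1* lowest in WT mouse 1 and highest in WT mouse 3. Between genotypes, *Gje1* was 10.2 CPM in SCA7 mouse 3, where the lens markers summed to 15.6 CPM, and 0.405 CPM in WT mouse 2, where they summed to 218 CPM. The part of lens RNA in the *Gje1* values was not tested. *Gja3*, a connexin of lens fibres, overlapped between the genotypes. It was 0.410, 0.825, 0.544 and 0.122 CPM in WT and 0.666, 1.10 and 0.107 CPM in SCA7 libraries. It was lowest in WT mouse 4 and SCA7 mouse 3, the libraries with the lowest lens sums, and did not pass the test (log2 fold change 0.35, adjusted p = 0.787, by the quasi-likelihood test of edgeR, Benjamini-Hochberg).

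**Figure D3:**
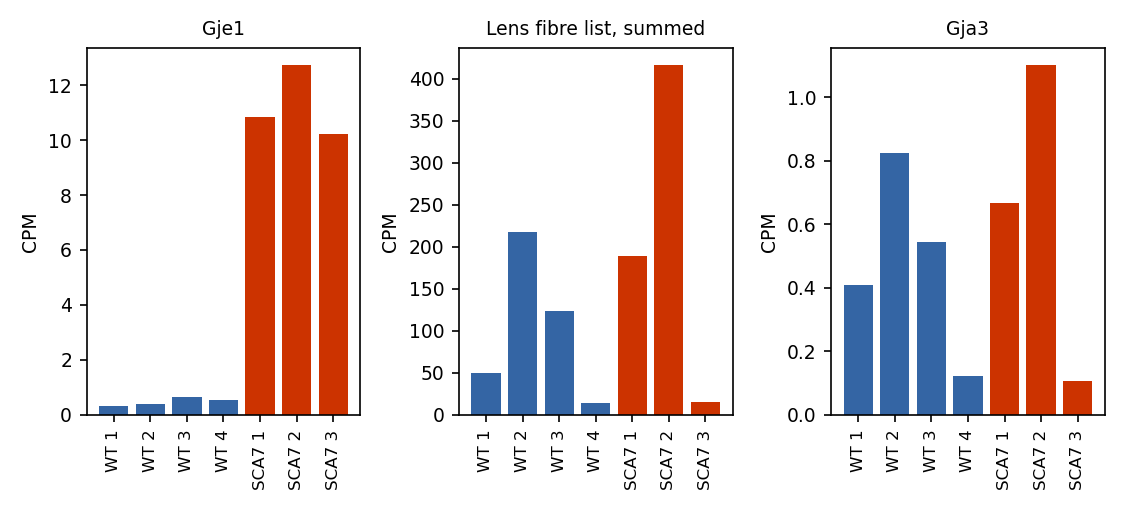
*Gje1*, the summed lens fibre markers and the lens connexin *Gja3* in CPM, 1 bar for each library (WT blue, SCA7 red) and a scale of its own for each panel. *Gje1* divides by genotype, while the lens sum runs from 14.2 to 218 CPM within WT and from 15.6 to 416 CPM within SCA7 libraries.

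*Gje1* lies at chr10:14715623-14718214 on the minus strand, within an intron of *Nmbr*, a neuropeptide receptor gene on the plus strand. Of the 1480 exon bases of *Gje1*, 0 lie in exons of *Nmbr*. *Nmbr* was 3.55 ± 0.491 CPM in WT and 3.43 ± 0.440 CPM in SCA7 retina, a log2 fold change of -0.04 (SE 0.136, adjusted p = 0.844). *Vta1*, a gene of endosomal sorting and the next gene on the strand of *Gje1*, was 49.9 ± 5.13 and 51.4 ± 1.49 CPM, a log2 fold change of 0.04 (SE 0.0759, adjusted p = 0.728). Neither neighbour therefore passed the test, and the other 4 genes of the table within 100 kb had too few counts to be tested. Of the 1431 windows of 50 bases, the read length, in the *Gje1* transcript, 79 (5.52%) also occur in transcripts of other genes and none of those is a connexin or pannexin.

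The 5 genes whose log2 CPM ran most like that of *Gje1* over the 7 libraries, among genes averaging 1 CPM or more, were *Il3ra*, *Kat2b*, *D430019H16Rik*, *Magi2* and *Arl6ip1*, with Pearson r from 0.997 to 0.999. Each r pools libraries of both genotypes, which lie apart, and is given as a measure of likeness only. *Il3ra*, a cytokine receptor subunit, was 1.62 ± 0.158 CPM in WT and 5.56 ± 0.134 CPM in SCA7 retina. The log2 fold changes of the 5 ran from 0.34 to 1.78, against 4.57 for *Gje1*.

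Across all genes tested, 7.47% were upregulated (FC above 1.3) and 7.91% downregulated (FC below 0.7) at an adjusted p below 0.05, 15.4% in either direction, and 28.3% had an adjusted p below 0.05 whatever their fold, with a median log2 fold change of -0.02. Of the 10 members, 9 passed the filter on low counts and 1 did not. *Gje1*, whose rise chose the list, is left out of the counts. Of the other 8 members tested, 0 were called in either direction, by edgeR and by DESeq2 alike, while 3 had an unadjusted p below 0.05 in edgeR, all of them lower, against 39.7% of all genes in either direction and 20.2% in this direction. Of these 8, 3 were higher in SCA7 retina, and their median log2 fold change was -0.24. Of the other 9 family genes, 4 were tested, with 0 called in either direction by edgeR or DESeq2 and 0 at an unadjusted p below 0.05 in edgeR.

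**Figure D4:**
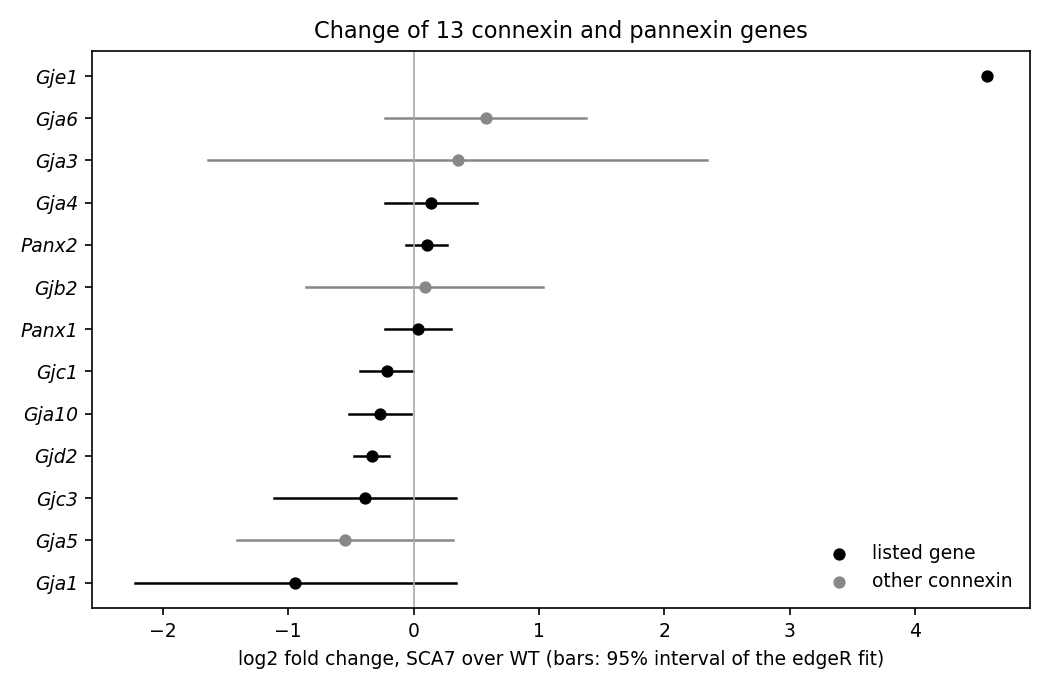
Log2 fold change (SCA7/WT) of the family genes tested, with 95% intervals from the fit for every gene but *Gje1*, which chose the list. *Gje1* stands at 4.57 and every other gene between -0.94 and 0.57, with the intervals of *Gjd2*, *Gja10* and *Gjc1* wholly below 0.

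For the 3 connexins of retinal neurons, *Gjd2*, *Gja10* and *Gjc1*, every SCA7 library lay below every WT library, as in 18.3% of all genes tested. Of the 3, 1 had an adjusted p below 0.05, against 28.3% of all genes, with a fold short of the threshold. *Gjd2*, which couples AII amacrine cells, cone bipolar cells and photoreceptors, was 105.0, 107, 117 and 118 CPM in WT libraries and 90.9, 85.1 and 90.8 CPM in SCA7 libraries. The highest SCA7 value was thus under the lowest WT value. The log2 fold change was -0.33 (SE 0.0639, 95% interval -0.47 to -0.19, adjusted p = 0.0023), a mean 20.6% lower, and since the FC of 0.794 is above 0.7 the gene does not count as downregulated. The adjusted p stayed below 0.05 in 7 of 7 fits without 1 library and in the fit by DESeq2 (5.74e-05). *A530058N18Rik* is a non-coding gene on the other strand that starts within *Gjd2*. Its entry ENSMUSG00000087694 was also lower, with 33.2 ± 1.34 CPM in WT and 26.7 ± 0.968 CPM in SCA7 retina. The log2 fold change was -0.32 (adjusted p = 0.00231). The entry ENSMUSG00000092201 overlapped between the groups, with 0.333 ± 0.0693 CPM in WT and 0.317 ± 0.149 CPM in SCA7 retina (log2 fold change -0.12, adjusted p = 0.82). Genes under this symbol share 57 of the 2879 exon bases of *Gjd2*, and the strand option of the counting is not given in the sources used here.

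*Gja10*, the connexin of horizontal cells, was 3.04, 3.12, 3.21 and 3.61 CPM in WT libraries and 2.71, 2.71 and 2.66 CPM in SCA7 libraries. The groups did not overlap, but the difference did not pass the test, with a log2 fold change of -0.27 (SE 0.112, 95% interval -0.51 to -0.02, adjusted p = 0.0961). *Gjc1*, which serves cone bipolar and ganglion cell coupling, was 5.19, 5.47, 6.19 and 5.52 CPM in WT libraries and 4.6, 4.99 and 4.85 CPM in SCA7 libraries. These groups did not overlap either, with a log2 fold change of -0.21 (SE 0.0968, adjusted p = 0.12).

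Marker sums of horizontal cells, of bipolar and AII amacrine cells and of rods and cones were also lower in SCA7 libraries. The 10 rod and cone markers summed to 57113-58931 CPM in WT and 13685-18240 CPM in SCA7 libraries. All 10 were downregulated, against 7.91% of all genes. No marker list of ganglion cells was read. The 8 horizontal cell markers summed to 398-440 CPM in WT and 354-367 CPM in SCA7 libraries, and 0 of the 8 passed the test with the fold threshold, while 3 of 8 had an adjusted p below 0.05, against 28.3% of all genes. Of the 8, 3 were higher and the median log2 fold change was -0.08. The 11 markers of bipolar and AII amacrine cells summed to 1112-1338 CPM in WT and 1016-1051 CPM in SCA7 libraries. Of the 11, 1 was downregulated, *Cabp5* (9.09%, close to the 7.91% of all genes). An adjusted p below 0.05 was seen for 6 of the 11, against 28.3% of all genes. Of the 11, 2 were higher and the median log2 fold change was -0.37. None of these markers was at 0 in all libraries. Their part in the lower levels of *Gjd2*, *Gja10* and *Gjc1* was not tested.

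*Gja1*, the principal connexin of astrocytes and also of Müller glia and pigment epithelium, varied more than any other abundant member. It was 21.2, 8.21, 7.00 and 8.86 CPM in WT libraries and 6.27, 7.78 and 3.67 CPM in SCA7 libraries. The groups overlapped, and WT mouse 1 stood far above the other WT mice. The log2 fold change was -0.94 (SE 0.511, 95% interval -2.22 to 0.33, adjusted p = 0.235). Without WT mouse 1 it was -0.45 (adjusted p = 0.232). The astrocyte markers summed to 61.4-77.1 CPM in WT and 154-167 CPM in SCA7 libraries, with 3 of 6 tested upregulated, against 7.47% of all genes. *Gfap*, the filament gene of reactive glia, was 18.4 CPM in WT and 90.1 CPM in SCA7 retina and made up most of the difference in the sum. The 10 Müller glia markers summed to 5474-6291 and 5569-5877 CPM, with 2 of 10 upregulated. Of the 10, 6 had a higher fitted level and 6 an adjusted p below 0.05, against 28.3% of all genes, while *Glul*, the most abundant, was 2928 CPM in WT and 2287 CPM in SCA7 retina. The 8 pigment epithelium markers summed to 78.3-156 and 20.1-47.5 CPM, with 4 of 8 downregulated, against 7.91% of all genes, and 3 of 8 higher without a call. Their part in the *Gja1* values was not tested.

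*Gjb6*, the other astrocyte connexin of the list, held only 2 to 6 counts in each library and was not tested. The WT libraries held 5, 6, 3 and 2 counts and the SCA7 libraries 4, 5 and 5, so no difference was detectable at this depth.

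*Gja4*, a connexin of vessel endothelium, was 1.01, 1.05, 1.07 and 0.994 CPM in WT libraries and 1.04, 1.39 and 0.962 CPM in SCA7 libraries. The groups overlapped (log2 fold change 0.14, SE 0.169, 95% interval -0.23 to 0.51, adjusted p = 0.583). The markers of endothelium and pericytes summed to 253-298 CPM in WT and 343-384 CPM in SCA7 libraries, with 3 of 11 upregulated, against 7.47% of all genes, and 7 of 11 at an adjusted p below 0.05, against 28.3%. Their part in the *Gja4* values was not tested.

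*Gjc3*, a connexin of myelinating cells, was at 0.222, 0.238, 0.356 and 0.275 CPM in WT libraries and 0.130, 0.305 and 0.175 CPM in SCA7 libraries. The log2 fold change was -0.39 (SE 0.334, 95% interval -1.11 to 0.34, adjusted p = 0.422), with overlap between the groups. The mouse retina holds no myelin, and of the 10 oligodendrocyte and myelin markers *Mog* was at 0 in every library. Their sum was higher in SCA7 libraries, 52.5-58.4 against 78.6-91.0 CPM, with *Mbp* and *Cnp* upregulated and *Ermn* downregulated, and their part in the *Gjc3* values was not tested.

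Neither pannexin passed the test. *Panx1*, an ATP release channel, was 6.03, 7.10, 8.80 and 7.20 CPM in WT libraries and 7.64, 6.71 and 8.02 CPM in SCA7 libraries. Its groups overlapped, and its log2 fold change of 0.04 (SE 0.121, adjusted p = 0.855) had a 95% interval from -0.23 to 0.30. *Panx2*, a pannexin of neurons, was 11.8, 13.2, 12.4 and 13.9 CPM in WT libraries and 13.5, 13.7 and 14.2 CPM in SCA7 libraries. Its log2 fold change of 0.10 (SE 0.0752, adjusted p = 0.328) had an interval from -0.06 to 0.27.

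The remaining family genes were expressed at low levels in retina of either genotype. *Gja5*, of arterial endothelium, had a log2 fold change of -0.55 (adjusted p = 0.331). *Gja6*, on the X chromosome, had 4 to 8 counts in WT and 11 to 15 in SCA7 libraries (log2 fold change 0.57, adjusted p = 0.27). *Gjb2* had a log2 fold change of 0.09 (adjusted p = 0.899). *Gjb1* was too low for the filter, with 5 to 15 counts in WT and 4 to 6 in SCA7 libraries. Without the filter its log2 fold change was -1.40 in edgeR (adjusted p = 0.0565) and -1.43 in DESeq2 (adjusted p = 0.107), and in CPM every SCA7 library lay below every WT library. *Gjb5*, *Gjd3*, *Gjd4* and *Panx3* were also not tested, with at most 7 counts in any library.

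The 4 lists of genes that act with connexins and pannexins were read in the same fit, 66 genes in all. Of these, 60 were tested, with 13 upregulated and 6 downregulated (31.7%, against 15.4% of all genes). The lists were chosen with earlier results of these data known, so this share is a description only. Of 18 connexin partners, which anchor, phosphorylate or traffic gap junction proteins, 17 were tested, with 4 upregulated, 0 downregulated and a median log2 fold change of 0.16. *Cdh2*, the N-cadherin gene, was 86.3, 99.1, 94.9 and 101 CPM in WT libraries and 154, 142 and 146 CPM in SCA7 libraries, without overlap (log2 fold change 0.62, SE 0.0669, adjusted p = 3.22e-05). *Camk2b*, a kinase subunit gene, rose from 114 ± 5.97 to 164 ± 2.24 CPM (0.52, adjusted p = 5.43e-05) and *Src*, a tyrosine kinase gene, from 38.2 ± 3.31 to 50.6 ± 1.82 CPM (0.40, adjusted p = 0.00124). *Cav1*, the caveolin gene, rose from 66.9 ± 16.4 to 106 ± 6.41 CPM (0.66, adjusted p = 0.0208). The call of *Cav1* was lost without WT mouse 4, SCA7 mouse 1 or SCA7 mouse 3 (adjusted p up to 0.0753) and without the filter on low counts (0.0777), and *Src* fell short of the fold threshold without WT mouse 1, WT mouse 3 or SCA7 mouse 1. *Tjp1*, the scaffold that binds connexins at the junction, had a log2 fold change of -0.06 (adjusted p = 0.463).

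Of 23 purinergic genes, the receptors for ATP and its products and the enzymes that break them down, 22 were tested, with 6 upregulated, 4 downregulated and a median log2 fold change of 0.02. The ATP receptor channel gene *P2rx2* was 1.64, 1.5, 1.61 and 1.38 CPM in WT libraries and 0.764, 0.656 and 1.00 CPM in SCA7 libraries (log2 fold change -0.91, SE 0.176, adjusted p = 0.00237). *P2ry14*, a receptor for UDP-sugars, fell from 2.00 ± 0.149 to 1.22 ± 0.0362 CPM (-0.71, adjusted p = 0.00195). *P2ry12*, the ADP receptor of resting microglia, rose from 3.50 ± 0.392 to 5.84 ± 0.138 CPM (0.74, adjusted p = 0.000323). *Entpd2*, an enzyme that cleaves extracellular ATP, rose from 1.43 ± 0.0654 to 2.33 ± 0.211 CPM (0.70, adjusted p = 0.0017). *P2rx7*, an ATP receptor often studied with *Panx1* and named here after its values were seen, rose from 0.643 ± 0.145 to 1.2 ± 0.0583 CPM (0.92, adjusted p = 0.00362). The other called genes were *P2ry6*, *P2ry13* and *Entpd1*, which rose, and *P2ry4* and *Nt5e*, which fell. The call of *P2ry6* was lost in 5 of 7 fits without 1 library. The 7 microglia markers, *P2ry12* among them, summed to 66.6-80.9 CPM in WT and 126-139 CPM in SCA7 libraries. All 7 were upregulated, against 7.47% of all genes, and their part in the values of the purinergic genes was not tested.

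Of 11 genes for other large-pore channels, 7 were tested, with 3 upregulated and 1 downregulated (57.1%, against 15.4% of all genes). *Lrrc8c*, a subunit of the volume-regulated anion channel, was 4.90, 5.41, 5.48 and 5.89 CPM in WT libraries and 11.7, 9.07 and 10.9 CPM in SCA7 libraries (log2 fold change 0.96, SE 0.104, adjusted p = 3.52e-05). Its fellow subunit gene *Lrrc8b* rose from 124 ± 14.1 to 178 ± 3.42 CPM (0.52, adjusted p = 0.000656), while *Lrrc8e* fell from 1.49 ± 0.252 to 0.814 ± 0.119 CPM (-0.87, adjusted p = 0.00381). *Calhm2*, a calcium homeostasis modulator channel gene, rose from 0.732 ± 0.0853 to 1.17 ± 0.0207 CPM (0.68, adjusted p = 0.00764).

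Of 14 genes for dopamine and nitric oxide signals, which set how strongly retinal cells are coupled, all 14 were tested, with 0 upregulated and 1 downregulated (7.14%, against 15.4% of all genes) and a median log2 fold change of -0.23. Of these, 6 had an adjusted p below 0.05 when no fold threshold was set, against 28.3% of all genes. *Th*, which makes the dopamine of amacrine cells, was 3.33, 4.40, 4.97 and 3.90 CPM in WT libraries and 2.50, 2.81 and 3.21 CPM in SCA7 libraries. The groups did not overlap (log2 fold change -0.54, SE 0.148, adjusted p = 0.0172), but the call was lost without WT mouse 2, WT mouse 3, SCA7 mouse 1 or SCA7 mouse 2.

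**Figure D5:**
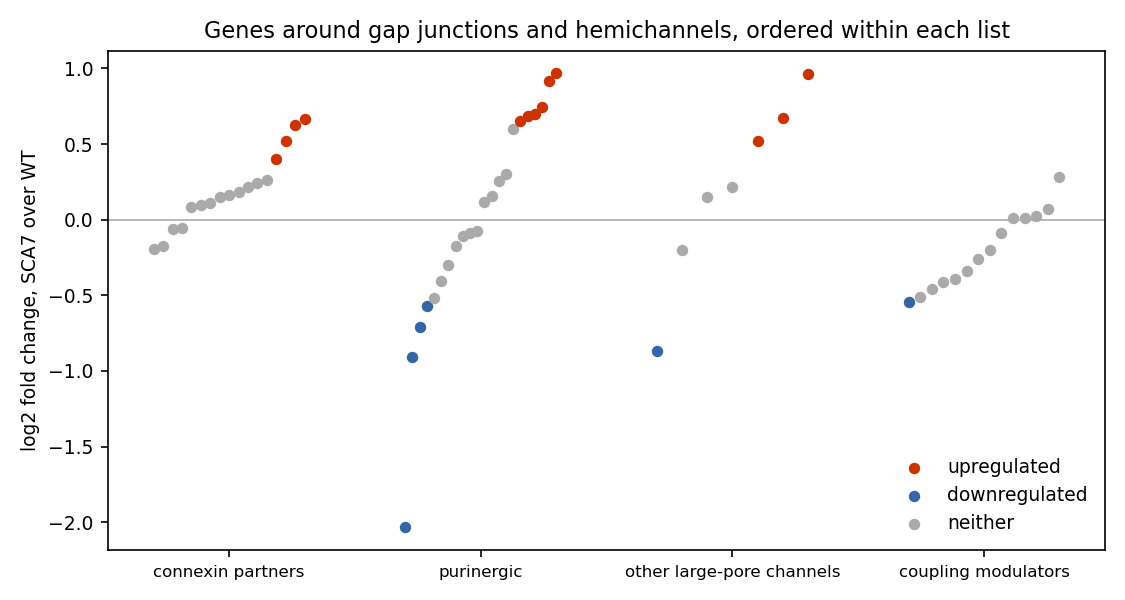
Log2 fold change (SCA7/WT) of the genes tested in the 4 lists around gap junctions and pannexin channels, 1 point for each gene, with upregulated genes in red and downregulated genes in blue. Called genes lie on both sides of 0 among the purinergic genes (6 up, 4 down), and above 0 alone among the connexin partners (4 up).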

How the data were processed

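Total RNA depleted of ribosomal RNA was sequenced as stranded single reads of 50 bases. Per the labels and the study's methods, the authors mapped reads to mm10 with TopHat2 2.0.14 and Bowtie2 2.1.0 with counting by HTSeq 0.6.1 on Ensembl genes. The deposited table holds raw counts of 52550 genes, of which 52403 were found in GENCODE M21, the source of names, positions and transcript lengths.

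Genes were kept by filterByExpr (20128 genes), scaled by TMM and compared by the quasi-likelihood test of edgeR 4.0.16 (R 4.3.3, limma 3.58.1) with genotype as the single term, and p values were adjusted over the whole table (Benjamini-Hochberg). DESeq2 1.42.0 gave the size factors for RPK and an alternative test. Alternatives also changed the filter, the thresholds, the block and the libraries used. All adjusted p values are from edgeR unless DESeq2 is named. In each list the called genes are described where 4 or fewer were called, and otherwise the 4 with the largest absolute log2 fold change among genes averaging 1 CPM or more. The other called purinergic genes, *Tjp1* and the marker genes were named after their values were seen. The members and lists were chosen with earlier results of these data known. On simulated counts of 20128 genes with a log2 change of 1, the edgeR step recovered 141 of 199 changed genes, 120 of the 126 at 1 CPM or more, and called 11 unchanged genes. Replicates were separate mice. Counting limits (3 counts) cover counting error only. The values of 4 further genes of the family are not reported here, and counts, ranks and shares of the family leave them out.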

Additional observations from a re-analysis of the deposited data

Results flagged for a closer look

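Of the 13 family genes tested, 1 had a library far from the others of its group. *Gja1* was 21.2 CPM in WT mouse 1, and the gap to the next WT mouse, at 8.86 CPM, was a larger part of the range of the 4 WT mice than Dixon's critical value of 0.829 allows. Chance flags about 1 group in 20 in this way.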

How the results depend on the processing

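*Gje1*, whose rise chose the list, is the single upregulated family gene, and nothing is read from that count. The number of downregulated family genes was 1 in place of 0 with no fold threshold (*Gjd2*) and 0 under the other alternatives, the replicate block included. For the pathway lists, 12 in place of 6 genes were downregulated and 17 in place of 13 upregulated with no fold threshold, 8 were downregulated with the replicate block (*Drd5* and *P2rx6* added), and leaving out 1 library gave 10 to 12 upregulated and 5 to 7 downregulated genes. Of the family genes that did not pass the test, 4 changed sign when 1 library was left out, and *Gja1*, *Gja10*, *Gjc1*, *Gjc3*, *Gja5*, *Gja6* and *Panx2* kept theirs in every such fit that tested them. *Gja4* ranged from -0.043 (without SCA7 replicate 2) to 0.25, *Panx1* from -0.044 (without WT replicate 1) and -0.02 (without SCA7 replicate 3) to 0.14, *Gja3* from -0.44 (without SCA7 replicate 2) to 0.90, and *Gjb2* from -0.11 (without WT replicate 4) and -0.069 (without WT replicate 1) to 0.17. With the replicate block, *Gja3* was -0.12 and *Gjb2* -0.071. The cause was not tested. Same-numbered mice correlated by 0.0096, 0.197 and 0.0787 in their deviations, and mice of unlike number by -0.203 to 0.135. These values do not settle whether the mice were paired. The main fit took them as unpaired. Genes of a few counts, such as *Gjb6*, did not pass the filter (without it, -0.16 with an adjusted p of 0.901 in edgeR).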
